A study of Homo sapiens with 12 samples.

Results

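The genes described here are 8 genes of the SUMO pathway, SUMO2, SUMO3, SAE1, UBA2, PIAS1, SENP1, SENP2 and SENP6, of 38516 genes in the expression table. They were taken by name. The set was chosen by a value of these same data, since SUMO3 was among the strongest rises in HCP5-silenced KYSE150 cells, so SUMO3 in KYSE150 is described below with no test. HCP5 is a long non-coding RNA gene of the major histocompatibility region. The study sequenced total RNA from KYSE150 and KYSE510, established cell lines of human esophageal squamous cell carcinoma, with 3 control libraries and 3 libraries in which HCP5 was silenced in each line, 12 in all. The labels give no genotype and no time after silencing, and the sample titles begin with sh without saying what silenced the gene. Whether the replicates are separate cultures is not stated either, so p-values measure only the spread between these libraries, which may be technical.

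SUMO proteins are small relatives of ubiquitin that are joined to lysines of other proteins, many of them nuclear. A heterodimer of SAE1 and UBA2 activates the SUMO protein for conjugation, ligases such as those of the PIAS family help choose the target, and SENP proteases trim SUMO precursors and remove SUMO from its targets. SUMO2 and SUMO3 are so alike as mature proteins that they are often written as SUMO2/3, and they can form chains. Tumour cells with high MYC activity are known for a dependence on SAE1 and UBA2.

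HCP5 itself, the targeted gene, was low in every library, between 0.315 and 1.85 RPKM. Expression is given as RPKM, a read count divided by the length of the exons and by the size of the library. HCP5 was at 0.770 ± 0.0220 RPKM (SD, n = 3) in KYSE150 controls and 0.437 ± 0.133 in silenced KYSE150, with no overlap, and at 1.39 ± 0.470 and 0.801 ± 0.257 in KYSE510, where 1 control library (0.914) lay below 2 silenced libraries. The log2 difference was -0.45 in KYSE150 (limma, adjusted p = 0.267) and -0.53 in KYSE510 (limma, adjusted p = 0.646), so neither passed the threshold of 0.05 after adjustment over all 17823 genes tested. HCP5 was lower in 3 of 3 same-numbered pairs of libraries in each line, and with the replicate number as a block the adjusted p was 0.0556 in KYSE150 and 0.134 in KYSE510 (limma). The pseudocount of 0.5 shrinks the change of such a low gene: the ratios of means were 0.568 and 0.576, and under the other settings the KYSE150 log2 difference lay between -0.95 and -0.30 and the KYSE510 one between -0.76 and -0.35. Each library held 20035025 to 28202422 reads, recovered from the steps between low values, and in KYSE150 every silenced library was deeper than every control library. The squamous markers fitted the label: KRT5 was at 205 to 1423 RPKM and TP63 at 14.9 to 24.6 over all libraries, except that SOX2 was at 0.0590 to 0.252 in KYSE150 against 5.82 to 9.87 in KYSE510. Of the 5 markers of other cell types, the highest was the fibroblast marker COL1A1, at 0.0659 to 0.184 RPKM in KYSE150 and 0.501 to 0.800 in KYSE510. CD3E, a leukocyte marker, was at 0.0669 to 0.170 RPKM in KYSE150 and at most 0.0141 in KYSE510, and PTPRC, PECAM1 and PDGFRB did not pass 0.0466 in any library. The summed level of the 6 squamous markers ran from 484 to 1046 RPKM in KYSE150 controls and from 768 to 1962 in silenced KYSE150, and from 310 to 355 and 458 to 578 in KYSE510. It was therefore higher with silencing in KYSE510 without overlap, beside the SUMO3 values below, and its part in them was not tested. The sum is carried mainly by KRT5, at 205 to 412 RPKM in KYSE510. KRT14, KRT6A and PERP were at 4.87 to 19.8, 10.2 to 73.5 and 29.2 to 46.6 there. The sum does not show that the markers moved as a set.

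SUMO2 and SUMO3 are the pair whose reads a counting program has to tell apart. SUMO3 lies on chr21:44805617-44818779, minus strand, of GRCh38, with 2732 bases of exon, and SUMO2 on chr17:75165586-75182983, minus strand, with 3372. Over their protein-coding sequences from GENCODE release 29, 232 of 285 aligned bases were identical (81.4%), and the longest identical run was 24 bases. The stretch below, 150 coding bases of each (43 to 192 of SUMO2 and 40 to 189 of SUMO3, counted from the start codon), is shown because it holds 29 differences, written in capitals, spread along its length.
SUMO2: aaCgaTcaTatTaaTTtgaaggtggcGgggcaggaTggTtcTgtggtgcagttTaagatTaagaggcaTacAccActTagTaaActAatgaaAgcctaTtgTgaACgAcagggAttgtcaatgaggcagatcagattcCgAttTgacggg
SUMO3: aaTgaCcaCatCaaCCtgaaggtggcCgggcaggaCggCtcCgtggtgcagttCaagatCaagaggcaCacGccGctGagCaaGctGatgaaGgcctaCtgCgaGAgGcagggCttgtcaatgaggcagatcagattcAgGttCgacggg
Of the 29 differences, 26 fall on the last base of a codon, and the longest run without one is 24 bases. Over the whole transcripts, SUMO2 and SUMO3 shared 3 words of 31 bases. Of SUMO3's 31-base words, 3.89% also occurred in another gene's transcripts, against 18.8% of SUMO2's, most often in the pseudogene SUMO2P1. The 13 SUMO2 pseudogenes in the table together held 64 to 130 reads in a library, which is 1.34% to 2.09% of the SUMO2 reads, so SUMO2 is the less certain of the pair.

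SUMO3 was the member that stood out in silenced KYSE150 cells, by the choice described above. Its level in the KYSE150 controls was 28.7, 23.8 and 38.4 RPKM, and in the silenced libraries 52.5, 69.0 and 60.8. Every silenced library was above every control library, and the means, 30.3 ± 7.40 and 60.8 ± 8.22 RPKM (SD, n = 3), stood in a ratio of 2.01. On the scale used for all tests, log2 of RPKM plus 0.5, the difference was 1.01, with 0.86, 1.51 and 0.66 within the same-numbered pairs of libraries. It ran from 0.86 without control replicate 2 to 1.19 without control replicate 3, the library nearest to the silenced ones. With libraries centred on their median it was 0.88.

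The KYSE510 libraries were not used to choose SUMO3, and there it can be tested. The controls held 50.7, 60.9 and 60.2 RPKM and the silenced libraries 68.0, 70.1 and 69.5. All 3 silenced libraries were above all 3 controls, and the 3 silenced values lay closer together than the controls, at 69.2 ± 1.07 against 57.3 ± 5.72 RPKM (SD, n = 3). The ratio of means was 1.21 and the log2 difference 0.28 (SE 0.15, 95% interval -0.06 to 0.62), positive in 3 of 3 pairs at 0.42, 0.20 and 0.20. It did not pass the test (limma, adjusted p = 0.862, and 0.482 with the replicate number as a block). The two-sided exact permutation test of the 6 libraries gave p = 0.1, the smallest that 3 against 3 allows. A silenced group wholly above its controls was found for 5.22% of all genes tested in KYSE510 and for 13.7% in KYSE150, and a group wholly below for 6.87% and 5.47%. SUMO3 was the 1 of 8 members with its silenced group wholly above in each line, and no member's was wholly below.

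**Figure D1:**
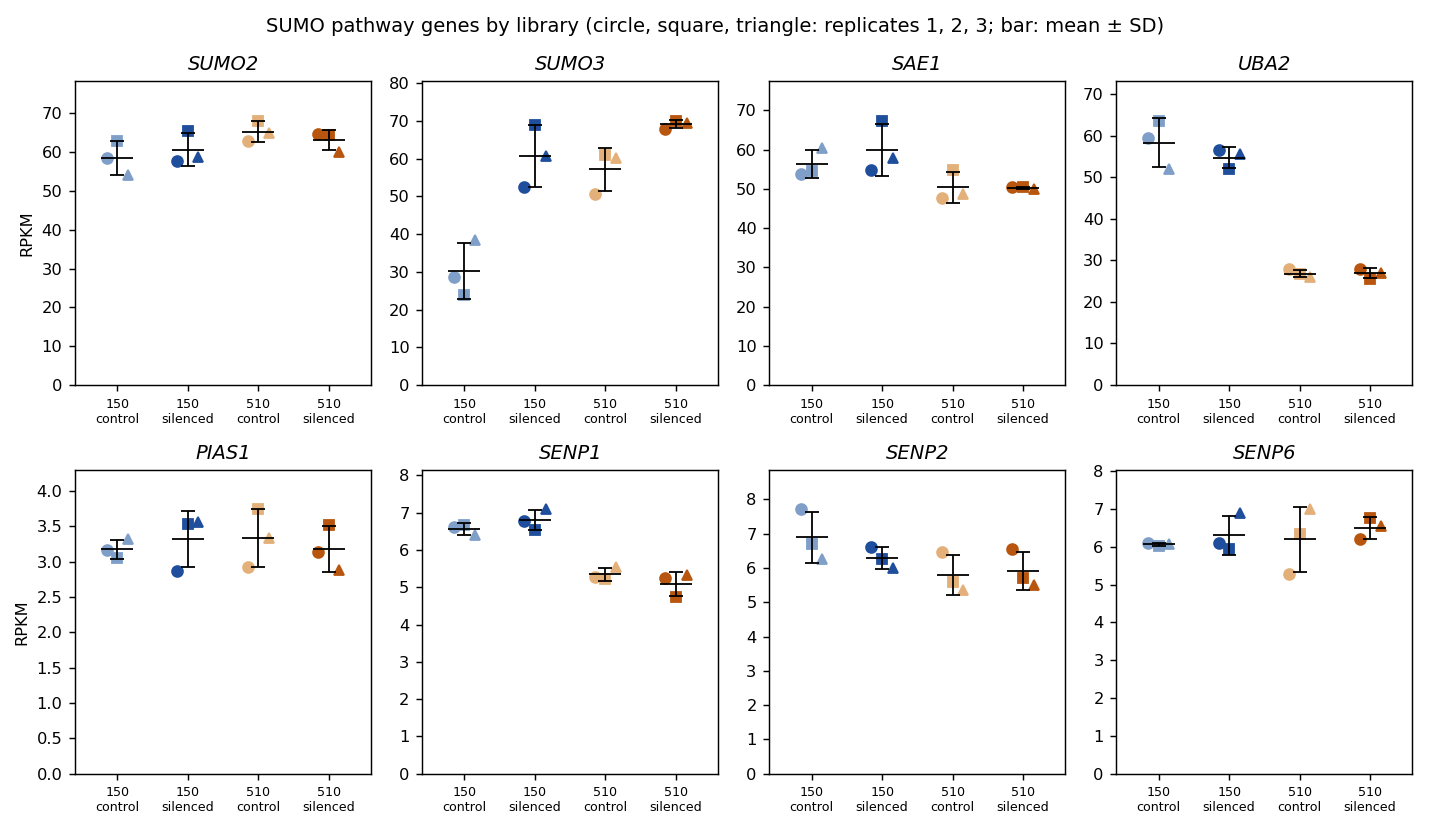
RPKM (vertical axes, from 0) of the 8 genes in each of the 12 libraries, by line and treatment; symbols mark replicates 1, 2 and 3, and bars the mean ± SD of 3 libraries. SUMO3 averages 30.3 RPKM in KYSE150 controls and 60.8 in silenced KYSE150, and UBA2 lies at 25.6 to 28.0 RPKM in KYSE510 and at 51.9 to 63.6 in KYSE150.

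SUMO2, the close paralogue, did not separate silenced from control libraries. It was at 58.5, 62.8 and 54.0 RPKM in KYSE150 controls and 57.6, 65.5 and 58.8 after silencing, a log2 difference of 0.05. In KYSE510 it was at 62.8, 68.1 and 65.0 RPKM in controls and 64.7, 64.3 and 60.1 after silencing. The groups overlapped in both lines, and the KYSE510 difference was -0.05 (SE 0.08, 95% interval -0.22 to 0.12, limma adjusted p = 0.967).

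The balance of the pair follows from these levels. SUMO3 made up 32.9%, 27.5% and 41.5% of the summed RPKM of SUMO2 and SUMO3 in the KYSE150 controls, and 47.7%, 51.3% and 50.8% in the silenced libraries. In KYSE510 the share was 44.7%, 47.2% and 48.1% in controls and 51.3%, 52.2% and 53.6% after silencing. The groups did not overlap in either line, and the means were 34.0% ± 7.07 and 49.9% ± 1.97 in KYSE150 and 46.6% ± 1.78 and 52.4% ± 1.19 in KYSE510 (SD, n = 3). The ratio of SUMO3 to SUMO2 went from 0.526 to 1.0 on average in KYSE150 and from 0.876 to 1.10 in KYSE510. The summed RPKM of the pair was 88.8 ± 3.17 in KYSE150 controls, 121 ± 12.2 in silenced KYSE150, 123 ± 8.10 in KYSE510 controls and 132 ± 2.45 in silenced KYSE510. These shares rest on the value that chose SUMO3 and were not tested. In such bulk RNA, a change in the mix of cells and a change in RNA per cell cannot be told apart.

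**Figure D2:**
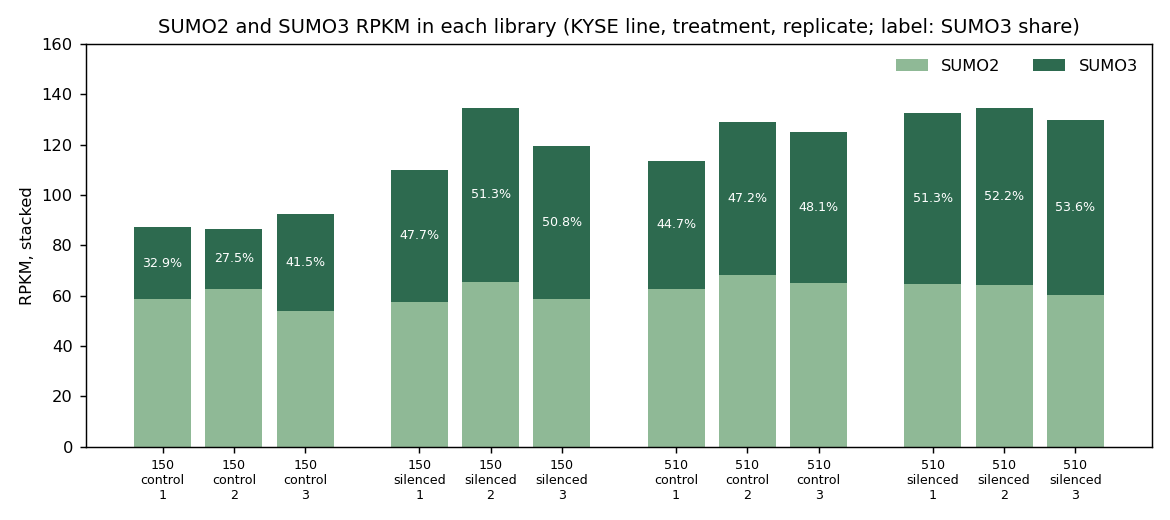
Stacked bars of SUMO2 and SUMO3 RPKM (vertical axis, from 0) in each of the 12 libraries, labelled by line, treatment and replicate, with SUMO3's percentage of the stack printed in white. The SUMO3 share is 27.5% to 41.5% in KYSE150 controls and 47.7% to 51.3% in silenced KYSE150.

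The region around the SUMO3 start is shown because SUMO3 is the member that moved with silencing in the line that chose it, and because the study's title names c-Myc. The window is 300 bases of RefSeq sequence on GRCh38.p14, chr21:44818013-44818312, minus strand, from 250 bases before the start that RefSeq annotates to 50 after it. This start lies inside the SUMO3 span given above, because the gene as listed in the authors' table begins further upstream. The capitals mark the E-box CACGTG, letters that MYC and several related factors bind, 64 bases before the start.
SUMO3 promoter: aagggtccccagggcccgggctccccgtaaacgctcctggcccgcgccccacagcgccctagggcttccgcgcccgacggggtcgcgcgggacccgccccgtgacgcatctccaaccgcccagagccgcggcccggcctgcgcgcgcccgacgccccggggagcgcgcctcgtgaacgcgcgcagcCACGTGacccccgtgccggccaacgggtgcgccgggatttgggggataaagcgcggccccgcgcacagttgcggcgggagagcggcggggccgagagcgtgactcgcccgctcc
The motif reads the same on both strands. It was present in 2548 of 35116 promoter windows of this length (7.26%), and in 1 of the 9 windows matched to 6 of the 8 members, the SUMO3 one. A match describes letters, not a binding site.

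The genes next to SUMO3 did not show its pattern. The nearest tested genes on either side, among them UBE2G2, a ubiquitin-conjugating enzyme, and PTTG1IP, had KYSE150 log2 differences of 0.03 (limma, adjusted p = 0.873) and 0.07 (limma, adjusted p = 0.622). Over all 6 nearest tested genes, KYSE150 differences ran from -0.21 to 0.32 and none passed. Between the lines the contrast was wider: in control libraries 5 of the 6 were called lower in KYSE510, by -0.53 for LINC01547 to -2.00 for TRPM2. Of all 17823 genes tested, 62.0% differed in either direction and 6005 were called lower. LL21NC02-1C16.1 differed by -0.41 (limma, adjusted p = 0.172), and the untested value of SUMO3 was 0.93. The genes whose levels followed SUMO3 most closely over the 12 libraries, after each line's mean was removed, were LAPTM4A (Pearson r = 0.980), NACC1 (0.979), PGAM1 (0.968), CTC-250I14.3 (0.966) and KLC1 (0.963), of 7323 genes compared. LAPTM4A, a lysosomal membrane protein gene, went from 5.14 to 14.2 RPKM in KYSE150 and from 14.8 to 20.4 in KYSE510. PGAM1, a glycolytic enzyme gene, went from 69.6 to 105 RPKM and from 94.2 to 103. CTC-250I14.3 and NACC1 moved together. CTC-250I14.3 went from 46.9 to 77.8 RPKM in KYSE150 and from 43.9 to 53.5 in KYSE510. NACC1 went from 22.2 to 35.4 RPKM and from 20.7 to 24.8. Whether these genes share exon bases or reads was not tested. KLC1, a kinesin light chain gene, followed the same order of libraries over a much narrower span. In KYSE150 it ran from -0.14 to 0.13 around the line's mean on the log2 scale, where SUMO3 ran from -0.82 to 0.70. The KLC1 means there were 8.23 RPKM in controls and 9.46 after silencing. These libraries share the difference between treatments and the depth of each library, and the correlations are descriptions.

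**Figure D3:**
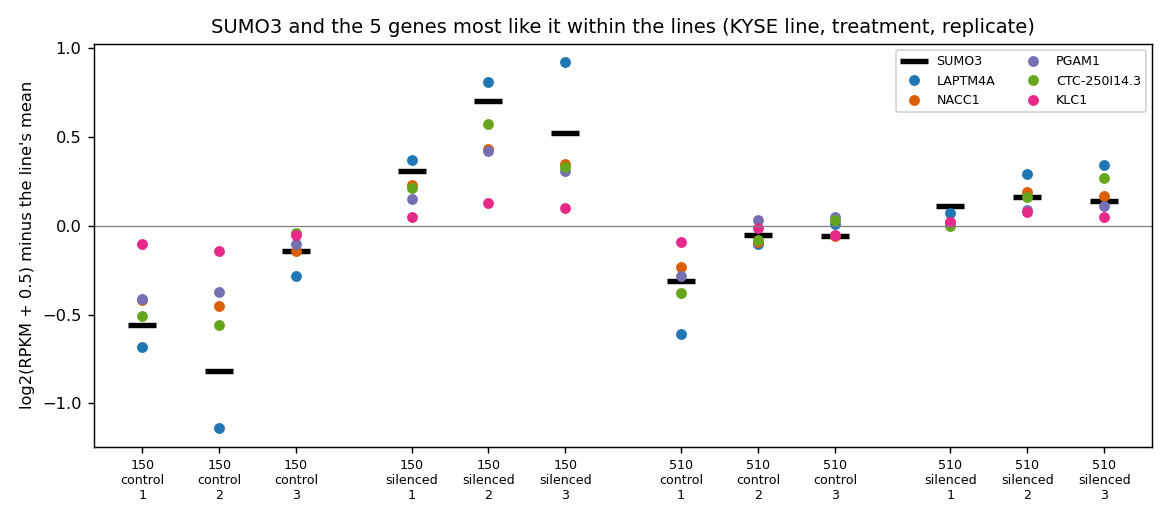
Log2 of RPKM plus 0.5, minus the mean of the same gene over the 6 libraries of its line (vertical axis), in each of the 12 libraries, for SUMO3 (black dashes) and the 5 genes most correlated with it (dots). SUMO3 is at -0.82 in KYSE150 control replicate 2 and at 0.70 in silenced replicate 2, and all 6 genes are below 0 in KYSE150 controls and above 0 in silenced KYSE150.

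The activating enzyme subunits, SAE1 and UBA2, had overlapping levels in silenced and control cells. SAE1 was at 53.9, 54.6 and 60.4 RPKM in KYSE150 controls and 54.7, 67.4 and 57.8 after silencing, and at 47.6, 54.9 and 48.6 against 50.4, 50.4 and 50.0 in KYSE510. Its groups overlapped in both lines, with a log2 difference of 0.09 in KYSE150 and 0.00 in KYSE510 (95% interval -0.20 to 0.20). UBA2, the subunit that carries the activating cysteine, was at 59.4, 63.6 and 51.9 RPKM in KYSE150 controls and 56.6, 51.9 and 55.6 after silencing. In KYSE510 it was at 27.8, 26.8 and 25.9 RPKM in controls and 28.0, 25.6 and 27.0 after silencing. Again the groups overlapped in both lines, with differences of -0.09 and 0.00 (KYSE510 95% interval -0.18 to 0.18).

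The largest difference among the 7 members that could be compared between the lines was in UBA2. In control libraries KYSE510 held 26.8 ± 0.954 RPKM of UBA2 and KYSE150 58.3 ± 5.91 (SD, n = 3), a ratio of 0.460. The log2 difference was -1.10 (SE 0.08, 95% interval -1.28 to -0.92, limma adjusted p = 4.2e-07), and the adjusted p lay between 1.4e-07 and 1.9e-05 under every other setting tried. In silenced libraries it was -1.01 (95% interval -1.19 to -0.83, limma adjusted p = 8.6e-07), a ratio of 0.491. SAE1, which pairs with UBA2 in the enzyme, differed by -0.16 in controls (limma, adjusted p = 0.139). It differed by -0.25 in silenced libraries (limma, adjusted p = 0.0303), but by -0.06 with libraries centred on their median (limma, adjusted p = 0.555) and by 0.00 with voom on the recovered reads (limma, adjusted p = 0.988). It also missed the threshold without silenced KYSE150 replicate 2 (limma, adjusted p = 0.135) and without any 1 of the silenced KYSE510 libraries (limma, adjusted p = 0.0632 to 0.0694). The ratio of SAE1 to UBA2 RPKM was thus 0.977 ± 0.164 in KYSE150 controls and 1.88 ± 0.168 in KYSE510 controls, and 1.10 ± 0.175 and 1.87 ± 0.0849 after silencing (SD, n = 3), with no overlap between the lines.

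UBA2 lies on chr19:34428352-34471251, plus strand, and SAE1 on the same chromosome at chr19:47113274-47210636, plus strand. Around UBA2 the nearest tested genes, looked at after its values were seen, split by side in the control libraries of the lines. On its left all were lower in KYSE510: RP11-618P17.4 by -0.09, CTD-2588C8.8 by -0.56 and PDCD2L by -0.86. Only PDCD2L passed there (limma, adjusted p = 0.000468). On its right, from chr19:34675717 on, all were higher. These were ZNF302 by 1.20 (limma, adjusted p = 2.2e-05), ZNF181 by 0.72 (limma, adjusted p = 2.4e-05) and CTD-2553L13.9 by 0.05, which did not pass. Of all genes tested, 62.0% differed. Of UBA2's 31-base words 13.7% also occur in another gene's transcripts, against 3.26% of SAE1's, and how the authors' counting placed such reads was not tested.

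The ligase PIAS1, which helps SUMO onto transcription factors among other targets, was the lowest of the 8 in every group. It was at 3.16, 3.05 and 3.32 RPKM in KYSE150 controls and 2.87, 3.54 and 3.56 after silencing, and at 2.92, 3.74 and 3.34 against 3.14, 3.52 and 2.88 in KYSE510. The groups overlapped in both lines, with differences of 0.05 in KYSE150 and -0.06 in KYSE510 (95% interval -0.30 to 0.18). PIAS1 shares 3260 of its exon bases (30.3%) with CALML4 and 2933 (27.2%) with RP11-315D16.2 on the opposite strand. The sources used here do not say whether reads were counted by strand, so its level may hold reads of those genes.

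The ligase and protease genes lie on other chromosomes: PIAS1 on chr15:68054179-68198603, SENP2 on chr3:185582496-185633551 and SENP6 on chr6:75601509-75718278, all on the plus strand, and SENP1 on chr12:48042898-48106308, minus strand. The protease genes SENP1, SENP2 and SENP6 were at similar low levels, and none of them separated silenced from control libraries. SENP1, which processes SUMO precursors and removes SUMO, was at 6.63, 6.67 and 6.39 RPKM in KYSE150 controls and 6.79, 6.55 and 7.09 after silencing. In KYSE510 it was at 5.27, 5.23 and 5.55 RPKM and then 5.24, 4.73 and 5.33, lower in 3 of 3 pairs, with a difference of -0.06 (95% interval -0.22 to 0.09). Both pairs of groups overlapped. SENP1 shares 628 exon bases (9.90%) with PFKM on the opposite strand.

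SENP2, a further protease that takes SUMO off its targets, was the member whose pairs pointed in opposite directions in the lines. In KYSE150 the controls held 7.71, 6.71 and 6.27 RPKM and the silenced libraries 6.62, 6.26 and 6.0, with pair differences of -0.20, -0.09 and -0.06. In KYSE510 the controls held 6.47, 5.58 and 5.36 RPKM and the silenced libraries 6.54, 5.71 and 5.50, with pair differences of 0.02, 0.03 and 0.03. Replicate 1 was the highest SENP2 library in all 4 groups and replicate 3 the lowest, so the groups overlapped while the pairs did not change order. SENP6, which trims chains of SUMO2 and SUMO3, was at 6.10, 6.03 and 6.07 RPKM in KYSE150 controls and 6.10, 5.93 and 6.89 after silencing. In KYSE510 it was at 5.28, 6.33 and 6.99 RPKM and then 6.20, 6.77 and 6.54, a difference of 0.07 (95% interval -0.14 to 0.29), with overlap in both lines.

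**Figure D4:**
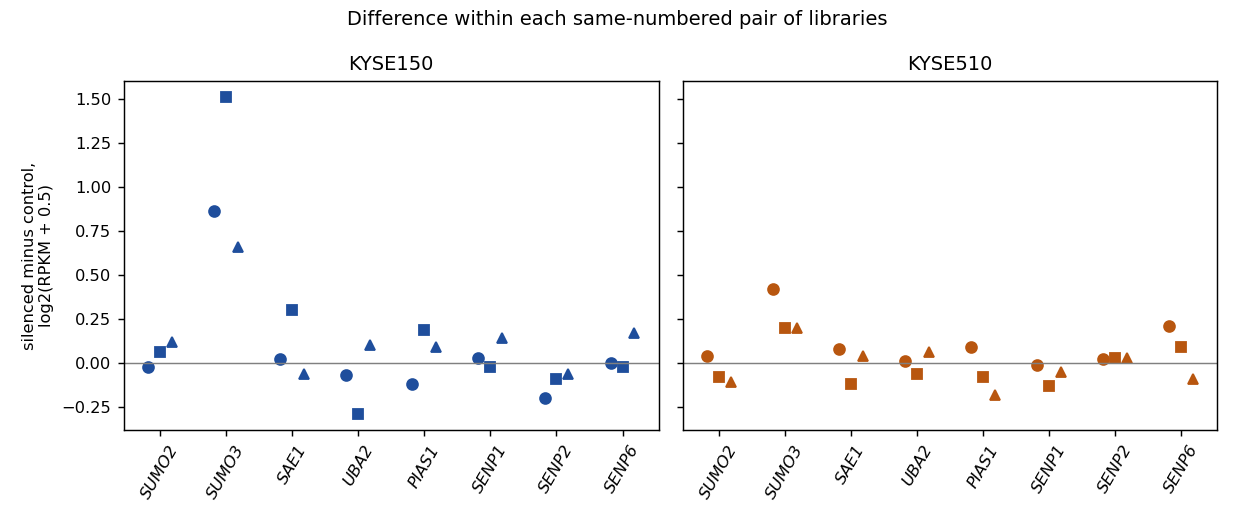
Silenced minus control difference in log2 of RPKM plus 0.5 (vertical axis) within each same-numbered pair of libraries, for the 8 genes in KYSE150 (left) and KYSE510 (right); circles, squares and triangles are pairs 1, 2 and 3. SUMO3 lies at 0.66 to 1.51 in KYSE150 and 0.20 to 0.42 in KYSE510, and SENP2 is below 0 in every KYSE150 pair and above 0 in every KYSE510 pair.

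Over the 8 members, 0 passed the test for silencing in KYSE510 by limma, where 0.0393% of all genes tested did. At an unadjusted p under 0.05 the main limma fit had 0 of 8, where 1132 of the 17823 genes were. Voom had 1 of 8, where 1318 genes were, and called 0 after adjustment. The count was also 1 of 8 with centred libraries, with the KYSE510 libraries alone and without KYSE150 control replicate 3. In those fits 1317, 1338 and 1365 of all genes were under 0.05. The median log2 difference of the 8 in KYSE510 was 0.00, and that of all genes -0.02. In KYSE150, where the members are described only, 6 differences were positive and 2 negative with a median of 0.05, and the median of all genes was 0.08. The sign of those small KYSE150 differences depended on the scaling: centring the libraries moved the median of all genes from 0.08 to -0.05, and then, as with voom, SUMO3 alone was positive and the other 7 members were negative. In KYSE150, 66.1% of all genes differed upward as deposited, 41.1% with centred libraries and 49.4% with voom.

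The levels of the 8 fell into an upper and a lower tier in each group. SUMO2, UBA2 and SAE1 held 56.3 to 58.5 RPKM on average in KYSE150 controls and overlapped one another, SUMO3 lay below all of them at 30.3 in every library, and the SENP genes and PIAS1 were at 3.18 to 6.90. In silenced KYSE150, SUMO3, SUMO2, SAE1 and UBA2, at 54.7 to 60.8 RPKM, did not separate from their neighbours in that order. In KYSE510 controls the order was SUMO2, SUMO3, SAE1 and UBA2, of which SUMO3 and SAE1 overlapped. In silenced KYSE510 it was SUMO3, SUMO2, SAE1 and UBA2, each above the next in every library. The lower tier overlapped in part in every group, with PIAS1 separate at the bottom.

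The rest of the pathway was taken as a list of 21 further genes, 20 of which were expressed well enough to be tested; SUMO4 was not. In KYSE150, 0 of the 20 passed for silencing by limma, where 0.499% of all genes did, with 3 at an unadjusted p under 0.05, and voom gave the same counts of 0 and 3. At that unadjusted level 3224 of the 17823 genes lay under 0.05 with limma and 3061 with voom. With the replicate number as a block 2 passed, where 6.70% of all genes did. These were RNF111, a ubiquitin ligase that recognises SUMO chains, and PIAS3, a ligase of the PIAS family. RNF111 was at 4.41, 4.44 and 4.09 RPKM in controls and 5.54, 5.38 and 5.34 after silencing, without overlap, a log2 difference of 0.30 (limma, adjusted p = 0.114, and 0.0460 with the block). PIAS3 was at 4.38, 4.51 and 5.33 RPKM in controls and 5.35, 5.54 and 6.54 after silencing, a difference of 0.27 (limma, adjusted p = 0.437, and 0.0458 with the block). The groups did not overlap for either gene. In KYSE510 the same 2 genes differed by 0.05 and 0.01.

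Of the 20 genes, 5 had every KYSE150 silenced library above every control, namely PIAS3, RNF111, ZNF451, RANGAP1 and SP100, where 13.7% of all genes did. The highest control and lowest silenced library nearly tied for ZNF451 (2.21 and 2.22 RPKM), SP100 (5.55 and 5.57) and PIAS3 (5.33 and 5.35). They lay further apart for RNF111 (4.44 and 5.34) and RANGAP1 (63.2 and 64.8). Under other settings the log2 difference fell to -0.02 for ZNF451 and -0.01 for RANGAP1. It stayed positive for PIAS3, RNF111 and SP100. ZNF451 is a SUMO ligase, RANGAP1 a well-known SUMO target at the nuclear pore, and SP100 a protein of nuclear bodies. The ligase gene TOPORS had every silenced library below, as had 5.47% of all genes. In KYSE510, SENP7 had every silenced library above and SENP3 every one below, 1 of 20 each, near the 5.22% and 6.87% of all genes. In that line 0 of 20 passed by limma or by voom, with 0 and 2 at an unadjusted p under 0.05, where 1132 and 1318 of the 17823 genes were.

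Between the lines, in control libraries, 2 of the 7 members tested differed, UBA2 and SENP1, both lower in KYSE510, where 62.0% of all genes tested differed. In silenced libraries 3 of 7 differed, UBA2, SENP1 and SAE1, all lower in KYSE510, where 64.1% of all genes did. The comparison of the lines and the comparison of treatments share libraries. SENP1 was lower by a log2 difference of -0.27 in controls (95% interval -0.43 to -0.12, limma adjusted p = 0.00583), and missed the threshold with voom (limma, adjusted p = 0.0666). In silenced libraries it differed by -0.39 (95% interval -0.54 to -0.23, limma adjusted p = 0.000571), but by -0.20 with centred libraries (limma, adjusted p = 0.0663) and -0.17 with voom (limma, adjusted p = 0.115). In the silenced comparison centring moved the median of all genes from -0.19 to -0.01. With centring SENP6 passed there as higher in KYSE510, at 0.23 (limma, adjusted p = 0.0284), and with voom at 0.29 (limma, adjusted p = 0.00881), against 0.04 as deposited.

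The remaining members did not pass between the lines as deposited. SUMO2 differed by 0.16 in controls (limma, adjusted p = 0.0926) and 0.06 in silenced libraries (limma, adjusted p = 0.542). It passed with voom, at 0.25 and 0.30 (limma, adjusted p = 0.0435 and 0.0190), and in controls without KYSE150 control replicate 2, at 0.21 (limma, adjusted p = 0.0424). SENP2 differed by -0.23 in controls (limma, adjusted p = 0.0671). It passed without KYSE150 control replicate 3 (limma, adjusted p = 0.0369) or without KYSE510 control replicate 1 (limma, adjusted p = 0.0280). PIAS1 differed by 0.05 in controls and -0.05 in silenced libraries, and SENP6 by 0.02 in controls.

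Of the 20 other pathway genes, 15 differed between the control libraries of the lines, 4 higher and 11 lower in KYSE510, and 15 differed between the silenced libraries. Over all genes tested the shares were 62.0% and 64.1%, with 5041 higher and 6005 lower in the control comparison. The largest differences on the log2 scale with a pseudocount of 0.5 were in PML, which builds the nuclear bodies that SUMO holds together, at 2.20 RPKM in KYSE150 and 0.912 in KYSE510, a log2 difference of -0.93 (limma, adjusted p = 0.000857). PIAS3 was next, at 4.74 and 2.48 RPKM, a difference of -0.84 (limma, adjusted p = 0.00151). DESI2, a gene of the desumoylating isopeptidase family, was higher in KYSE510, at 3.22 and 5.83 RPKM, a difference of 0.77 (limma, adjusted p = 0.000657). The order depends on the pseudocount: SENP7, named after its values were seen, was at 1.43 and 0.643 RPKM, a smaller ratio (0.448) than that of PIAS3 (0.523), with a difference of -0.76 (limma, adjusted p = 5.6e-05).

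**Figure D5:**
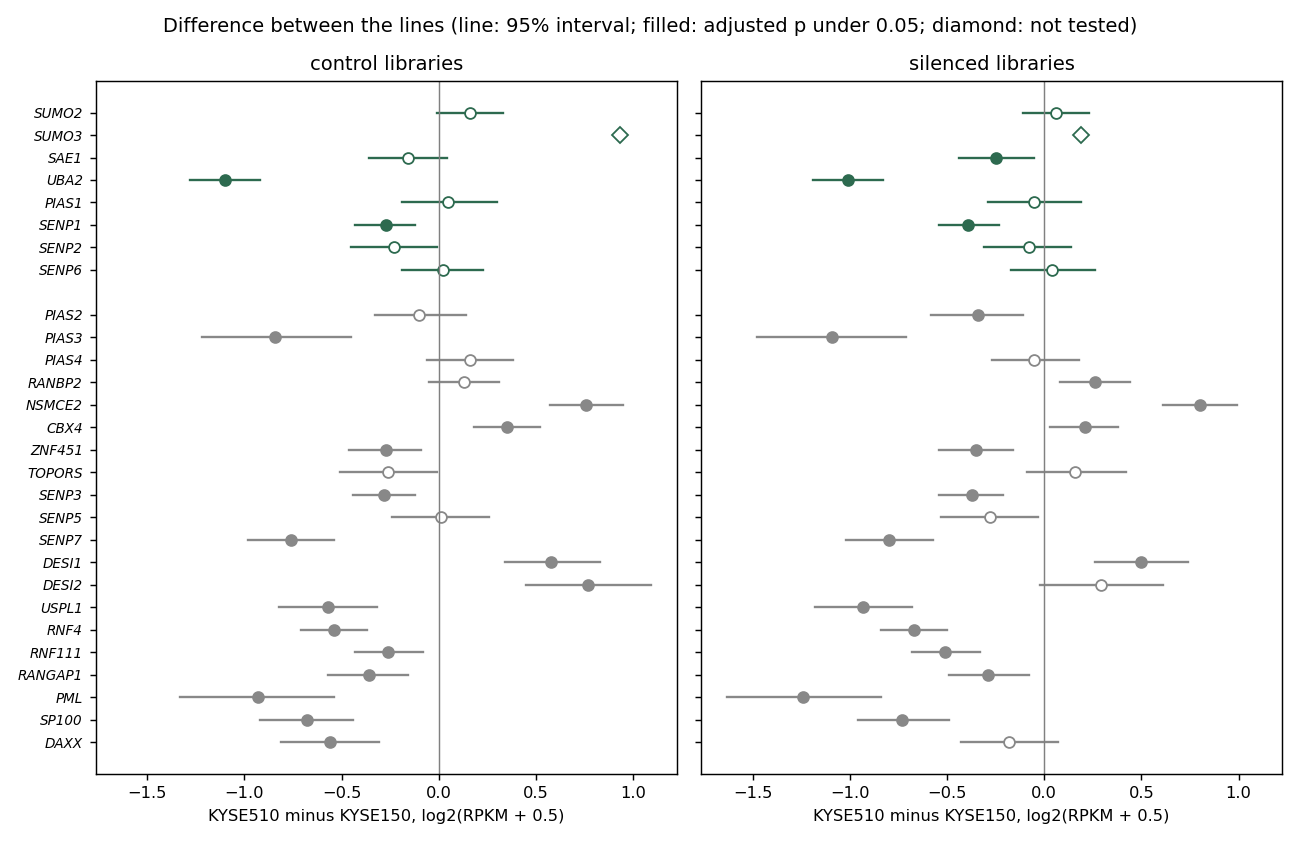
KYSE510 minus KYSE150 difference in log2 of RPKM plus 0.5 (horizontal axis) for 7 members and SUMO3 (green) and 20 other SUMO pathway genes (grey), in control (left) and silenced (right) libraries; lines are 95% intervals, filled circles have an adjusted p under 0.05, and the diamond, SUMO3, was not tested. UBA2 lies at -1.10 and -1.01, apart from the other members.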

How the data were processed

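Total RNA of 12 libraries, 3 in each of 4 groups, was sequenced. The authors deposited 1 table of RPKM values for 38516 genes. Per the submitters' processing notes, HISAT2, DESeq and GRCh38 were used; versions, the annotation release and strand are not given in the sources used here. Whole reads (tolerance 0.01) were recovered for 100% of values and gave 20035025 to 28202422 reads per library, 633 to 7216 for a member. For the members with the fewest reads, counting error is not small beside the spread between libraries.

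Genes at 0.5 RPKM or more in 3 or more libraries (17823, all 8 members among them) were fitted together with limma 3.58.1 in R 4.3.3 on log2(RPKM + 0.5), with 4 group means and 8 residual degrees of freedom. This scale understates changes of low genes. P-values were two-sided and adjusted by Benjamini-Hochberg over all genes, threshold 0.05. No count model was the main test. The deposited values are RPKM, and the reads recovered from them were used for voom as an alternative. Alternatives were the pseudocount, no filter, centred or rescaled libraries, each line alone, limma's voom on recovered reads, leaving out each library, and the replicate number as a block. Same-numbered libraries of a line deviated together (r 0.147 to 0.415 in all 6 pairs, from -0.385 to 0.184 in the others). KYSE150 control replicate 2 went more with silenced replicate 1 (r 0.184) than with silenced replicate 2 (r 0.147). The numbers were used to pair libraries in the pair differences and in the block fit. The main fit did not pair them.

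The members and gene lists were chosen with earlier results of these data known. Some genes of the list are not reported here and were left out of its counts. Named genes are the 8 members, those of the list past the threshold in any silencing fit, the 3 largest differences between control lines, the nearest tested neighbours of SUMO3, and the 5 genes most correlated with it among those with a mean of 5 RPKM or more. The UBA2 neighbours, and genes named for groups that do not overlap, were chosen after their values were seen. Gene positions, exon lengths, shared exon bases and neighbours are from the authors' deposited table. Transcripts and coding sequences are from GENCODE release 29, and the promoter is from RefSeq.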

Additional observations from a re-analysis of the deposited data

Results flagged for a closer look

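The silencing difference of SENP2 had opposite signs in the lines. It was -0.12 in KYSE150, with all 3 same-numbered pairs negative, and 0.03 in KYSE510, with all 3 pairs positive, on the scale of log2 of RPKM plus 0.5. The difference between the lines was not tested. The KYSE510 value is small, and it changed sign when control replicate 3 or silenced replicate 1 was left out.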

How the results depend on the processing

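Of 114 recomputed counts of members and pathway genes, 112 stayed within 1.5 times the reported count. With the replicate block, 2 of 20 other pathway genes passed for silencing in KYSE150 instead of 0. With RPKM rescaled to the same sum, 4 of 7 members differed between control lines instead of 2, SAE1 and SENP2 being added. The block changed no call of a member in KYSE510.

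UBA2 between the lines kept its direction and its call under every setting run. Small values that did not pass as deposited changed sign, as listed next. Between silenced lines some of the same genes passed under another scaling: SUMO2 with voom (0.30), SENP6 with centring (0.23) and voom (0.29), and SENP2 with rescaling (-0.27). For silencing in KYSE510, rescaling gave -0.03 for SAE1 and -0.02 for UBA2, and leaving out a library gave -0.04 to 0.06 for SAE1, -0.03 to 0.04 for UBA2, -0.14 to 0.02 for PIAS1, -0.04 to 0.10 for SENP2 and -0.03 to 0.16 for SENP6. Between control lines, rescaling gave -0.04 for PIAS1 and -0.08 for SENP6, and leaving out a library gave -0.02 to 0.14 and -0.06 to 0.12. Between silenced lines, rescaling gave -0.14 for SUMO2 and -0.14 for SENP6, centring 0.13 for PIAS1 and 0.10 for SENP2, voom 0.18 and 0.15, and leaving out a library -0.14 to 0.01 for PIAS1. The cause was not tested. The count over all genes in KYSE150, 89, was 1194 with the block, 161 with voom and 7 in the fit of the line alone. When a library was left out it was 15 to 1287, the highest without KYSE150 control replicate 3. In KYSE510 the count was 7, and 0 to 44 over all settings, 0 being the fit of the line alone.

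Limits: 3 libraries a group, not stated to be separate cultures, a silencing of HCP5 that did not itself pass the test, RPKM that depend on the scaling for differences near 0, and counting whose strand and treatment of shared sequence are not given.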
